A study of Mus musculus with 18 samples.

Results

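The mitochondrial ribosomal protein genes were taken as every gene of the deposited expression table whose symbol is Mrpl or Mrps followed by a number and at most 1 letter, with a mean of at least 10 normalized counts over all 18 libraries. This gave 78 of the 48440 genes in the table, and 18254 genes in all had a mean of at least 10. No gene with such a symbol fell below that limit: the lowest mean was 332 normalized counts (Mrps28), the next 467 (Mrpl14) and the highest 2868 (Mrpl10). By their names and known places, 26 members belong to the small subunit and 51 to the large subunit. The large subunit set holds Mrps18a and Mrps30, which keep small-subunit names. The remaining member, Mrps36, is now known as a component of the 2-oxoglutarate dehydrogenase complex and is described apart from the others.

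The mitochondrial ribosome translates the mRNAs of the mitochondrial genome, all of which encode membrane subunits of the respiratory chain and ATP synthase. Its rRNAs are transcribed in the mitochondrion, but every one of its proteins is encoded in the nucleus, made in the cytosol and imported. Part of its proteins have counterparts in bacterial ribosomes, and part were added during the evolution of mitochondria. Neurons depend heavily on oxidative phosphorylation, so this machinery is expressed throughout the brain.

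The libraries came from a study of short-term memory in mice of the Diversity Outbred stock, in which every animal carries its own genome. They cover 3 tissues, prefrontal cortex (PFC) and the tissues labelled MDTH and HPF, each with 3 libraries from mice called high performers and 3 from mice called low performers. No treatment or engineered allele is named for any group, and neither age nor sex is given. Nothing in the labels states that replicates were different animals, and p-values therefore reflect variation among libraries that may in part be technical.

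The values were gene counts scaled by the authors, with totals of 50828589 to 59634490 per library. Summed markers fitted the labelled tissues: thalamic markers summed to 117774 to 235944 in MDTH and at most 18612 elsewhere, and hippocampal markers to 48500 or more in HPF and at most 19559 elsewhere. The library names bear a number. The numbers 44, 88 and 165 stand on the high performer libraries of all 3 tissues, while 130 stands on a low performer library of both PFC and MDTH and 163 on one of both MDTH and HPF, so the comparisons in different tissues may share animals. The style of the names separated the groups completely in PFC and MDTH: the 6 low performer libraries have names that open with "1_" and the 6 high performer libraries do not. In these 2 tissues performance and any difference in preparation that goes with the name style cannot be told apart. The 6 HPF names share 1 style, but the letters after the number separate the groups completely. These letters are FF or EF in high performers and BA or BD in low performers, and their meaning is not stated. The lane tags of the HPF libraries differed in part between high and low performers. In HPF too, performance and any difference that goes with these letters cannot be told apart.

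In PFC, 7 of the 78 members were higher in high than in low performers and 0 were lower (limma, adjusted p below 0.05). Among all 17991 genes tested, 5.85% were called, 3.22% higher and 2.63% lower. The log2 difference, high minus low performers, had a median of 0.20 over the members and -0.01 over all genes, and it was positive for 60 members and negative for 18. Values of the high and low groups did not overlap, with the high group above, for 38 members, against 17.2% of all genes. They did not overlap, with the high group below, for 8 members, against 13.8% of all genes. All differences and SEs given below are on the scale of log2(normalized count + 1).

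Of the small subunit, 3 of 26 members rose in PFC. Mrps14, a protein of the small-subunit head with a bacterial counterpart, had 1419, 2468 and 1734 normalized counts in high performers and 930.0, 759 and 726 in low performers. Every high performer library exceeded every low performer library, although the high group spread widely. Its log2 difference was 1.19 (SE 0.21, adjusted p = 0.0288), a ratio of means of 2.33. Mrps18c, one of the mammalian relatives of bacterial protein S18, had 786, 714 and 877 normalized counts in high performers and 434, 457 and 473 in low performers. The groups were far apart and tight, with a log2 difference of 0.80 (SE 0.13, adjusted p = 0.0239). Mrps33, a protein found only in mitochondrial ribosomes, had 1675, 1751 and 2004 normalized counts against 1108, 1226 and 924. Its groups did not overlap either, and the log2 difference was 0.74 (SE 0.14, adjusted p = 0.0302).

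Of the large subunit, 4 of 51 members rose in PFC. Mrpl33, a small protein with a bacterial counterpart, had 743, 898 and 817 normalized counts in high performers and 455, 446 and 351 in low performers. High performers had about 1.96 times the level of low performers, with a log2 difference of 0.98 (SE 0.15, adjusted p = 0.0217). Mrpl17 had 1541, 1824 and 1638 normalized counts against 910.5, 1228 and 1022, a log2 difference of 0.67 (SE 0.14, adjusted p = 0.0399). Mrpl44, which has a fold related to ribonuclease III, had 645, 607 and 613 normalized counts in low performers and 830.1, 967 and 893 in high performers. The log2 difference of Mrpl44 was 0.53 (SE 0.11, adjusted p = 0.0460). Mrpl19 had 1767, 1940.5 and 1923 normalized counts against 1401, 1221 and 1451, with a log2 difference of 0.47 (SE 0.10, adjusted p = 0.0482). In all of these large-subunit genes, the lowest high performer library lay above the highest low performer library.

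The PFC calls rested on small margins. Leaving out high replicate 2, high replicate 3, low replicate 1 or low replicate 3 left 0 members called, leaving out high replicate 1 left 1 (Mrps14), and leaving out low replicate 2 left 5. With all 18 libraries in 1 fit, which pools the spread over tissues, 22 members (28.2%) were called, all higher, where that fit called 13.9% of all genes in either direction.

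**Figure D1:**
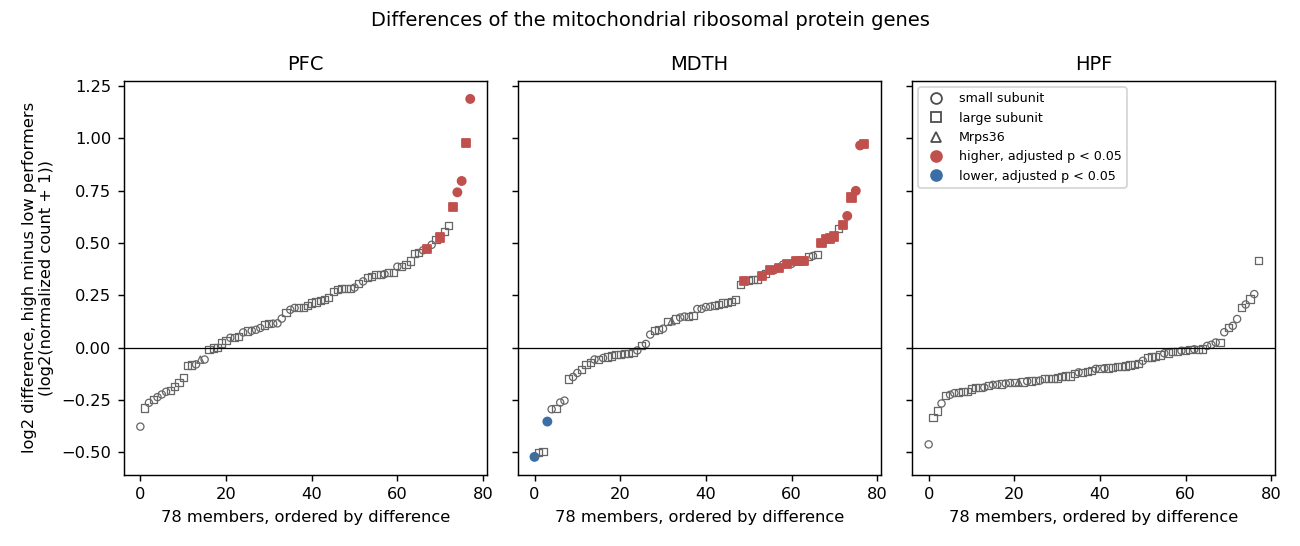
Log2 difference, high minus low performers, of each of the 78 members in PFC, MDTH and HPF (y axis, log2 of normalized count + 1), ordered by size along the x axis within each tissue; the marker shape gives the subunit and filled markers are members with an adjusted p below 0.05. Most members lie above 0 in PFC (60 of 78) and MDTH (53 of 78), and most lie below 0 in HPF (65 of 78), where 0 are called.

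In MDTH, 18 members were higher in high performers and 2 were lower. Among all 17861 genes tested, 25.0% were called, 12.5% higher and 12.5% lower. The median log2 difference was 0.18 over the members and -0.00 over all genes, with 53 members positive and 25 negative. The high group lay wholly above the low group for 39 members, against 22.2% of all genes, and wholly below for 5, against 22.0%. The calls fell unevenly over the subunits: 15 of 51 large-subunit members rose and 0 fell, while 3 of 26 small-subunit members rose and 2 fell. This difference between the subunits was not tested.

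Mrps33, Mrps18c and Mrps14 were the small-subunit members that rose in MDTH. Mrps33 had 1880.0, 1906 and 1798 normalized counts in high performers and 1125, 1315 and 1177 in low performers, a log2 difference of 0.63 (SE 0.09, adjusted p = 0.0064). Mrps18c had 721, 843 and 726 normalized counts against 460.0, 464 and 435, a log2 difference of 0.75 (SE 0.12, adjusted p = 0.0076). The low group of Mrps18c held to a narrow band, and in both genes every high performer library lay above every low performer library. Mrps14 had 1612, 2347 and 1515 normalized counts against 858, 1144 and 782, with a log2 difference of 0.97 (SE 0.21, adjusted p = 0.0178). Here too the groups did not overlap, and a single high performer library stood well above the other two.

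The 2 members that fell in MDTH are both proteins of the small subunit. Mrps15, whose bacterial counterpart binds the rRNA early in assembly, had 1038, 861 and 999 normalized counts in high performers and 1397, 1425 and 1329 in low performers. All high performer libraries were below all low performer libraries, with a log2 difference of -0.52 (SE 0.11, adjusted p = 0.0149). Mrps23 had 1549, 1363 and 1372 normalized counts against 1793, 1786 and 1886, with a log2 difference of -0.35 (SE 0.09, adjusted p = 0.0296). Its groups did not overlap.

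Among the large-subunit members that rose in MDTH, Mrpl44 had 976, 983 and 948 normalized counts in high performers and 686, 668 and 671 in low performers, a log2 difference of 0.52 (SE 0.09, adjusted p = 0.0108). Mrpl13 had 1659.6, 1565 and 1559 normalized counts against 981, 1209 and 1006, a log2 difference of 0.59 (SE 0.11, adjusted p = 0.0116). Mrpl53 had 692, 791 and 912 normalized counts against 482, 482 and 483, a log2 difference of 0.72 (SE 0.13, adjusted p = 0.0117). The 3 low performer libraries were nearly identical for Mrpl53, and the high performer libraries spread above them.

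Mrpl9, a large-subunit protein with a bacterial counterpart, had 1681, 1997 and 1846 normalized counts in high performers and 1213, 1201 and 1409.7 in low performers (log2 difference 0.53, SE 0.11, adjusted p = 0.0155). Mrpl45, which lies at the tunnel exit where the ribosome meets the inner membrane, had 1769, 1969 and 1907 normalized counts against 1419, 1450.0 and 1371 (log2 difference 0.41, SE 0.08, adjusted p = 0.0155). Mrpl33 had 674, 866 and 586 normalized counts against 419, 368 and 293 (log2 difference 0.97, SE 0.20, adjusted p = 0.0156). None of these genes had overlapping groups, and Mrpl33 again had a ratio of means near 1.97. The other members that rose were Mrpl1, Mrpl30, Mrpl27, Mrpl18, Mrpl49, Mrpl50, Mrpl20, Mrpl3 and Mrpl28, with log2 differences between 0.32 (Mrpl28) and 0.52 (Mrpl1).

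The number of MDTH calls also depended on single libraries. Between 7 and 19 members were called when 1 library was left out, with 7 without low replicate 3, 10 without high replicate 2, 11 without high replicate 3 and 12 without low replicate 2.

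**Figure D2:**
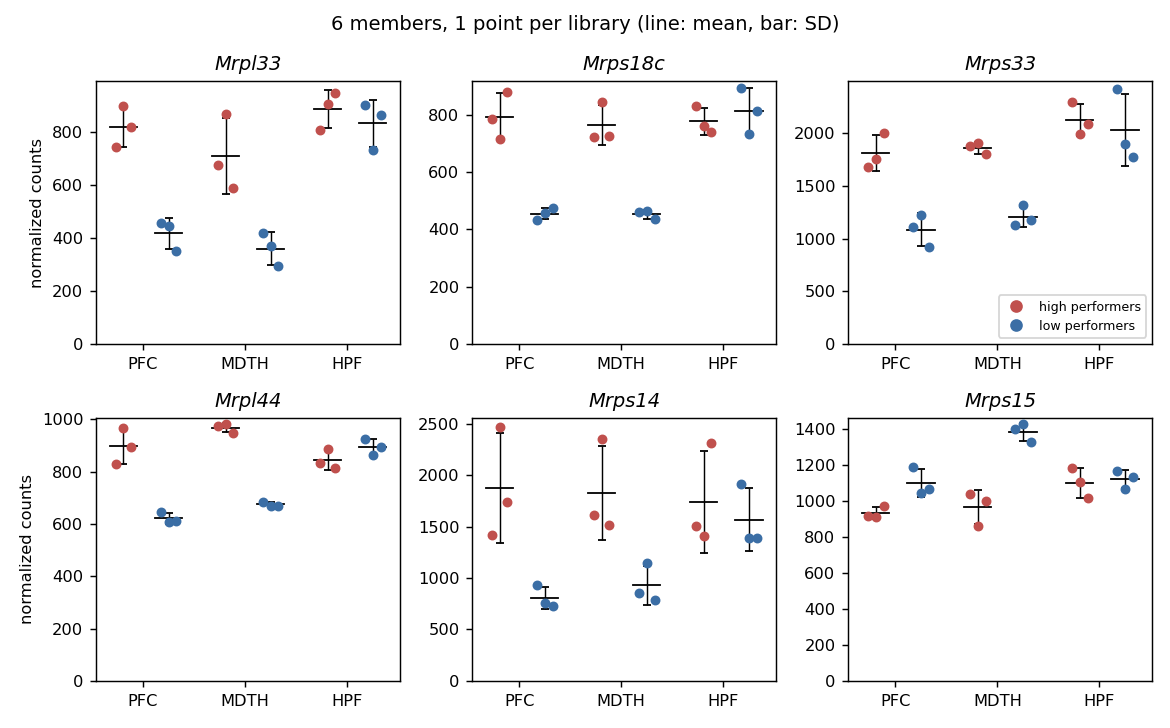
Normalized counts (y axis, linear from 0) of Mrpl33, Mrps18c, Mrps33, Mrpl44, Mrps14 and Mrps15 in each library of PFC, MDTH and HPF; red points are high performers, blue points low performers, lines means and bars SDs over 3 libraries. For Mrps18c the 6 low performer libraries of PFC and MDTH lie between 434 and 473, and the other 12 libraries between 714 and 893.

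In HPF, 0 members were called in either direction by limma, and 3 of the 18082 genes tested were called in all (0.0166%; 0.0111% higher and 0.00553% lower). At an unadjusted p below 0.05 there were 2 members, both lower in high performers, and 2399 genes (13.3%). The fit without the mean-variance trend also called 0 members. The median log2 difference was -0.10 over the members and -0.01 over all genes, with 13 positive and 65 negative. The high group lay wholly below the low group for 19 members, against 11.6% of all genes, and wholly above for 0, against 8.47%.

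The members with the smallest p in HPF were Mrps22, Mrpl12 and Mrpl54. Mrps22, a mitochondrion-specific small-subunit protein, had 856, 819 and 773 normalized counts in high performers and 1083, 922 and 946 in low performers (log2 difference -0.27, SE 0.11, adjusted p = 0.364). Mrpl12, the stalk protein that recruits translation factors, had 2256, 2025 and 2024 normalized counts against 2390.1, 2435 and 2398 (log2 difference -0.20, SE 0.08, adjusted p = 0.364). Mrpl54 had 458, 522 and 545 normalized counts against 560.1, 636 and 688 (log2 difference -0.30, SE 0.14, adjusted p = 0.396). The groups did not overlap for any of these genes, and none passed the test. Members called in the other tissues differed in how they lay in HPF. The groups overlapped for Mrps18c and Mrpl33: Mrps18c had 830.0, 759.8 and 738 normalized counts against 893, 731 and 813, and Mrpl33 had 806, 906 and 945 against 899.7, 730.3 and 862. Mrpl13 and Mrpl45 did not overlap, with high performers below: Mrpl13 had 1064, 1088 and 952 normalized counts against 1136, 1148 and 1154. Mrpl45 had 1494, 1507 and 1543 against 1602, 1595 and 1680.2, and neither passed the test.

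The difference between tissues was tested as an interaction, that is, as the high minus low difference of 1 tissue minus that of another, in 1 fit of all 18 libraries. Between MDTH and HPF, 16 members had a more positive difference in MDTH and 1 a more negative one, where 19.0% of all 18254 genes were called, 10.5% more positive and 8.52% more negative. Mrpl13 had the smallest p, with 0.59 in MDTH and -0.15 in HPF, an interaction of 0.74 (SE 0.13, adjusted p = 0.0014). Mrpl44 had 0.52 in MDTH and -0.08 in HPF, an interaction of 0.60 (SE 0.11, adjusted p = 0.0023). Mrps18c had 0.75 in MDTH and -0.06 in HPF, an interaction of 0.81 (SE 0.15, adjusted p = 0.0023). Mrps15 was the gene that differed downward, with -0.52 in MDTH and -0.03 in HPF. The calls comprised 14 of 51 large-subunit and 2 of 26 small-subunit members upward, and 1 small-subunit member downward.

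Between HPF and PFC, 0 members had a more positive difference in HPF and 16 a more negative one, where 9.14% of all genes were called, 3.37% more positive and 5.77% more negative. The clearest were Mrps18c (-0.06 in HPF and 0.80 in PFC, interaction -0.86, SE 0.15, adjusted p = 0.0044), Mrpl44 (interaction -0.61, SE 0.11, adjusted p = 0.0057) and Mrpl30 (interaction -0.60, SE 0.12, adjusted p = 0.0093). These genes thus had a positive difference in PFC and values near or below 0 in HPF. Between MDTH and PFC, 0 members were called by limma, where 0.871% of all genes were more positive and 2.54% more negative (3.41% in either direction). At an unadjusted p below 0.05 there were 7 members, against 15.7% of all genes. The smallest p-values belonged to Mrpl52 (-0.50 in MDTH and 0.27 in PFC, interaction -0.76, SE 0.23, adjusted p = 0.0916), Mrpl43 (interaction -0.34, SE 0.11, adjusted p = 0.1014) and Mrps26 (interaction -0.37, SE 0.14, adjusted p = 0.1841).

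Libraries that share a name number deviated together, and with the name number as a random block the interactions called 30 members for MDTH and HPF (29 more positive), 25 for HPF and PFC (all more negative) and 1 for MDTH and PFC. The block also raised the share of all genes called in either direction, to 27.4%, 13.3% and 5.66%, beside 38.5%, 32.1% and 1.28% of members. Without the block and with 1 library left out, the count for HPF and PFC ranged from 6 (without PFC high replicate 3) to 16, with 7 without PFC high replicate 2 and 8 without HPF high replicate 3 or HPF low replicate 1. It was 10 without PFC low replicate 2, HPF high replicate 1 or HPF high replicate 2. The count for MDTH and HPF fell to 11 without MDTH high replicate 2, and the count for MDTH and PFC rose to 1 without MDTH high replicate 1.

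The name style of the libraries gave a further description of the same values. For 12 of 78 members the 6 libraries with names opening in "1_", the low performers of PFC and MDTH, were all below the other 12 libraries, where this held for 3.03% of all genes. For 1 member, Mrps2, they were all above, where this held for 2.10% of genes. Mrpl44 had 607 to 686 normalized counts in those 6 libraries and 816 to 983 in the other 12, and Mrpl33 had 293 to 455 against 586 to 945. Mrps33 had 924 to 1315 normalized counts in the 6 libraries and 1675 to 2417 in the others. In these genes the HPF libraries, both high and low performers, thus lay with the high performer libraries of PFC and MDTH. The others of the 12 were Mrpl1, Mrpl18, Mrpl23, Mrpl3, Mrpl45, Mrpl53, Mrpl9, Mrps14 and Mrps18c.

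Summed over all members, the share of normalized counts was 0.178%, 0.187% and 0.189% in the PFC high performer libraries and 0.158%, 0.159% and 0.161% in the low performer libraries. In MDTH it was 0.184%, 0.188% and 0.190% against 0.174%, 0.174% and 0.175%. In HPF it was 0.176%, 0.189% and 0.196% against 0.196%, 0.198% and 0.202%. The groups were apart in PFC and MDTH, with high performers above, and in HPF they overlapped slightly, with high performers lower on average. Genes of the mitochondrial genome took the opposite course: they held 5.43% ± 0.17 of counts in PFC high performers while low performers held 8.47% ± 0.28 (SD over 3 libraries). In MDTH they held 5.90% ± 0.44 against 7.72% ± 1.06, and in HPF 7.44% ± 1.08 against 5.68% ± 0.88. With the mitochondrial genome's counts left out of the total, the members' share was still 0.189% to 0.200% against 0.173% to 0.175% in PFC and 0.195% to 0.202% against 0.187% to 0.190% in MDTH. In HPF it was 0.193% to 0.210% against 0.207% to 0.215%, and the groups overlapped.

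**Figure D3:**
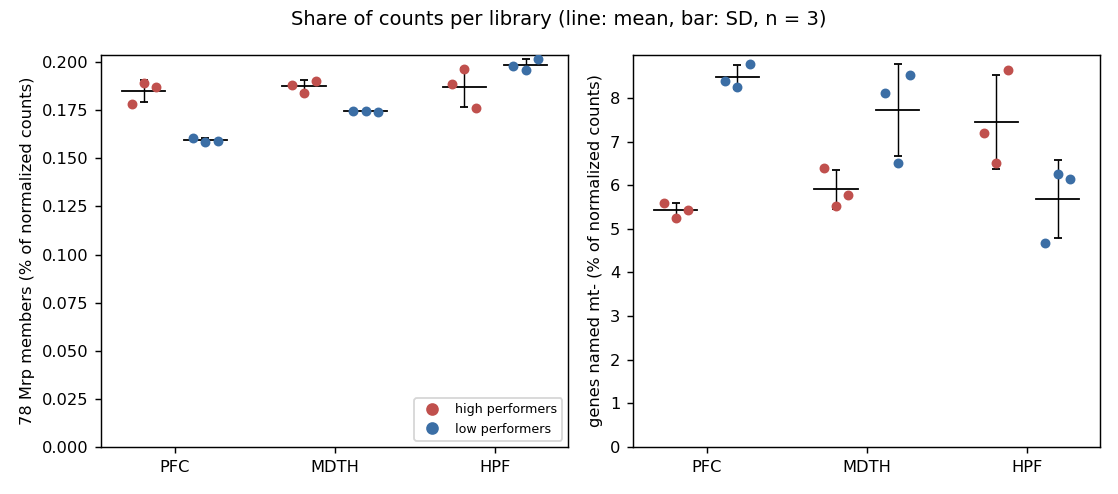
Share of all normalized counts per library (y axes, percent, from 0) held by the 78 members (left) and by genes of the mitochondrial genome (right) in PFC, MDTH and HPF; red points are high performers, blue points low performers, lines means and bars SDs over 3 libraries. In PFC the members' share is 0.178% to 0.189% in high and 0.158% to 0.161% in low performers, while the mitochondrial genome's share is lower in high performers.

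Marker levels of cell types moved with performance as well. In MDTH, thalamic markers summed to 205747 to 235944 in high and 117774 to 155570 in low performers, inhibitory neuron markers to 2133 to 2694 against 5683 to 24183, and habenula markers, which overlapped, to 337 to 1595 against 1523 to 11748. General neuron markers (376848 to 424339 against 303215 to 363603), excitatory markers (114852 to 129428 against 68030.3 to 93914) and cortical markers (12184 to 13463 against 6909 to 9722) were higher in MDTH high performers without overlap. The excitatory and thalamic lists share Slc17a6, so their sums are not separate observations. In PFC, astrocyte markers summed to 63342 to 78449 in high and 80273 to 86894 in low performers, cortical markers to 23316 to 25230.2 against 27040.5 to 31610.1, and microglial markers to 9786 to 11806 against 12235 to 15052. Inhibitory neuron markers were higher in PFC high performers (46734 to 46897 against 40985 to 45790.4), and the other lists overlapped. In HPF, general neuron markers summed to 185118 to 234378 in high and 299949 to 362510.4 in low performers. Markers of oligodendrocyte precursors (5593 to 6961 against 4616 to 5530.3), endothelium (4475 to 8607 against 3804 to 4262), habenula (148 to 308 against 47.6 to 121) and choroid plexus were higher in HPF high performers without overlap. Choroid plexus markers reached 145464 in 1 PFC high performer library and 159331 in 1 HPF high performer library, against medians of 2126 and 8524 in those groups, and had a median of 74163 in PFC low performers. No marker of any list was at 0 throughout a group. In bulk tissue, fewer cells of a type and less RNA per cell cannot be told apart, and the part of these marker differences in the members' differences was not tested.

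The members fell into proteins with a bacterial counterpart and proteins specific to mitochondria. Of the 48 with a bacterial counterpart, 5 rose in PFC, and 12 rose and 1 fell in MDTH. Of the 29 specific to mitochondria, 2 rose in PFC, and 6 rose and 1 fell in MDTH. As shares, 10.4% and 6.9% rose in PFC, where 3.22% of all genes did, and 25.0% and 20.7% rose in MDTH, where 12.5% did. The median log2 differences in PFC were 0.25 and 0.19, those in MDTH 0.21 and 0.12, and those in HPF -0.10 and -0.11. The 31 large-subunit proteins with a bacterial counterpart had the highest median of the 4 combinations in PFC (0.34) and in MDTH (0.32). No test compared these groups.

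Mrps36, Mrpl58, Mrps18a, Mrps30 and the stalk proteins were not called between performers within any tissue. Most members were not called either: calls numbered 7 of 78 in PFC, 20 in MDTH and 0 in HPF. In the MDTH and HPF interaction, Mrpl58, Mrps18a and Mrpl11 were called (limma, adjusted p = 0.0338, 0.0449 and 0.0322). Mrps36 had a log2 difference of -0.06 in PFC, 0.13 in MDTH and -0.17 in HPF. Mrpl58, a peptidyl-tRNA hydrolase that rescues stalled ribosomes and is also built into the large subunit, had 0.20, 0.22 and -0.15. Mrps18a had 0.11, 0.22 and -0.17, beside 0.80, 0.75 and -0.06 for Mrps18c. Mrps30 had 0.24, 0.14 and -0.08. Of the stalk proteins, Mrpl10 had 0.00, 0.09 and -0.14, Mrpl11 had 0.19, 0.33 and -0.09, and Mrpl12 had -0.00, -0.03 and -0.20. The Mrpl12 interval in PFC ran from -0.25 to 0.25.

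Gene length was looked at because members have short transcripts, with a median near 1223 to 1226 nucleotides. Other protein-coding genes with transcripts of up to 1000 nucleotides had a median log2 difference of 0.08 in PFC, 0.09 in MDTH and -0.01 in HPF. The 30 members in that length class had medians of 0.22, 0.20 and -0.17. Of the other genes of that length, 7.7% rose and 2.15% fell in PFC, and 18.8% rose and 7.97% fell in MDTH. Of the 30 members, 3 rose and 0 fell in PFC, and 7 rose and 1 fell in MDTH. The shares that rose among the other short genes were above those of all genes (3.22% in PFC and 12.5% in MDTH). Across the members, Spearman's rho of the difference with length was 0.03 in PFC, -0.00 in MDTH and 0.24 in HPF. Genes are not independent replicates, and these values are descriptions.

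Genes that act with the mitochondrial ribosome were counted from lists chosen for their function, with earlier results of these data known. These counts stand beside the shares of all genes called: 3.22% rose and 2.63% fell in PFC, and 12.5% rose and 12.5% fell in MDTH. Of 5 mitochondrial ribosomal proteins with other names, 2 rose in PFC and 1 in MDTH. Dap3, a GTP-binding protein of the small subunit, had 3000, 3553 and 3027 normalized counts in PFC high performers and 2034, 2159 and 2199 in low performers (log2 difference 0.58, SE 0.10, adjusted p = 0.0241). In MDTH its log2 difference was 0.69 (SE 0.10, adjusted p = 0.0053). Chchd1, also of the small subunit, had a log2 difference of 0.61 in PFC (SE 0.13, adjusted p = 0.0460). Its MDTH difference of 0.46 did not pass (adjusted p = 0.0714).

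Of 26 assembly factors, 0 were called in PFC (limma), and 2 rose in MDTH (7.69%, below the 12.5% of all genes). These were Afg3l2, a subunit of the inner-membrane protease that matures Mrpl32 (log2 difference 0.43, SE 0.08, adjusted p = 0.0111), and Gtpbp10, a GTPase of large-subunit assembly (0.70, SE 0.16, adjusted p = 0.0236). Of 17 translation and mRNA factors, 1 rose in PFC (5.88%), and 3 rose (17.6%) and 1 fell in MDTH. Slirp, which with Lrpprc stabilises mitochondrial mRNAs, rose in PFC (log2 difference 0.88, SE 0.12, adjusted p = 0.0185) and MDTH (0.66, SE 0.16, adjusted p = 0.0256). Lrpprc rose in MDTH (0.31, SE 0.08, adjusted p = 0.0290), and its PFC difference of 0.33 did not pass (adjusted p = 0.0625).

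Of 20 mitochondrial aminoacyl-tRNA synthetases and related enzymes, 1 rose in PFC (5.0%), and 8 rose (40.0%, against 12.5% of all genes) and 2 fell in MDTH. The PFC count and the MDTH count of genes that fell were near the shares over all genes. The PFC gene was Lars2, the mitochondrial leucyl-tRNA synthetase, with 15355, 12884 and 15691 normalized counts in high and 3095, 2084 and 4624 in low performers, a log2 difference of 2.23 (SE 0.27, adjusted p = 0.0136). In HPF Lars2 had 3460.5, 2961 and 3368 normalized counts in high and 12801, 6637 and 13127 in low performers, a log2 difference of -1.67 that did not pass (SE 0.25, adjusted p = 0.1057). Its libraries were separated in both tissues, in opposite directions. In MDTH, Mars2 (log2 difference 0.70, SE 0.09, adjusted p = 0.0045) and Nars2 (0.93, SE 0.15, adjusted p = 0.0083) had the smallest p. Of 14 genes of mitochondrial DNA replication, transcription and RNA processing, 0 were called in PFC, and 2 (14.3%, near the 12.5% of all genes) rose in MDTH (Polg, the mitochondrial DNA polymerase, 0.57, and Trmt10c, a subunit of the RNase P of mitochondria, 0.49).

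The templates that these ribosomes translate are the 13 mRNAs of the mitochondrial genome. Of these mRNAs, 1 rose and 9 fell in PFC, 2 rose and 4 fell in MDTH, and 0 were called in HPF, where all 13 were positive. Their median log2 differences were -0.78, -0.36 and 0.42. mt-Atp8 fell by 0.91 on the log2 scale in PFC (SE 0.08, adjusted p = 0.0096), while mt-Nd4l rose by 1.21 (SE 0.14, adjusted p = 0.0136). The 2 mitochondrial rRNAs had no call in any tissue. Of 17 abundant mitochondrial proteins used as a gauge of mitochondrial content, 2 rose in PFC (11.8%; Vdac3, 0.63, and Tomm20, 0.51), 7 rose (41.2%) and 1 fell in MDTH, and 0 were called in HPF, with medians of 0.11, 0.30 and -0.15.

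Between tissues, over high and low performers together, the members differed modestly. From MDTH to PFC, 13 members were higher and 2 lower in MDTH, where 40.7% of all genes were called, 20.3% higher and 20.4% lower. Mrpl49 ranged from 2206 to 3591 normalized counts in MDTH (median 2818) and from 1789.7 to 2178 in PFC (median 2057), 1.41 times higher in MDTH, with no overlap. The log2 difference of Mrpl49 was 0.47 (SE 0.07, adjusted p = 0.0001). Mrpl10, a stalk protein, was 1.31 times higher in MDTH (0.39, SE 0.06), and Mrpl13 1.29 times higher, with overlapping libraries (0.35, SE 0.06). The members lower in MDTH were Mrps9 (-0.17, SE 0.05) and Mrpl2 (-0.22, SE 0.08), a protein near the catalytic centre. The count was 9 without PFC high replicate 1, in place of 15.

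The HPF libraries differed from all PFC and MDTH libraries in name style, lane tags and estimated depth. The depth was 76703937 to 88628988 reads in HPF, 42944380 to 47523246 in MDTH and 41156570 to 48849680 in PFC. In the contrasts with HPF, tissue and these differences cannot be told apart. From MDTH to HPF, 19 members were higher and 22 lower in MDTH, where 58.1% of all genes were called, 29.1% higher and 29.0% lower. Mrps26 ranged from 1461 to 1667 normalized counts in MDTH (median 1573) and from 2428 to 3105 in HPF (median 2645), with no overlap. It was 1.71 times higher in HPF, a log2 difference of -0.77 (SE 0.07). Mrpl3 was 1.61 times higher in HPF (-0.70, SE 0.08) and Mrps9 1.35 times (-0.43, SE 0.05). Mrpl49 (0.46, SE 0.07), Mrpl46 (0.43, SE 0.07) and Mrps27 (0.36, SE 0.07) were higher in MDTH. For Mrpl49 the MDTH and HPF interaction with performance was called as well. It overlapped between these tissues in low performers (2206 to 2695 normalized counts in MDTH, 2004 to 2249 in HPF). In high performers it did not (2940 to 3591 against 1831 to 2168). Both this tissue contrast and the interaction were also called for Mrpl11, Mrpl13, Mrpl28, Mrpl33, Mrpl53, Mrps18a, Mrps18c and Mrps33. From HPF to PFC, 23 members were higher and 7 lower in HPF, where 45.5% of all genes were called, 21.8% higher and 23.7% lower. Mrps26 (0.66, SE 0.07), Mrpl3 (0.65, SE 0.08) and Mrps33 (0.56, SE 0.09) were higher in HPF. For Mrps33 and Mrps26 the HPF and PFC interaction with performance was called as well. It was also called for Mrpl53, Mrps18c, Mrpl33, Mrps24, Mrps22, Mrpl44, Mrpl17 and Mrpl9, which were likewise higher in HPF than in PFC. Mrps33 overlapped between these tissues in high performers (1992 to 2290.5 normalized counts in HPF, 1675 to 2004 in PFC) and not in low performers (1775 to 2417 against 924 to 1226). Mrps27 (-0.48, SE 0.07), Mrps18b (-0.28, SE 0.07) and Mrpl40 (-0.30, SE 0.08) were lower in HPF.

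The order of the tissue means differed from member to member. HPF was first, PFC second and MDTH last for 20 members, MDTH first, PFC second and HPF last for 18, and MDTH first, HPF second and PFC last for 16. The other orders held 11 (HPF, MDTH, PFC), 10 (PFC, MDTH, HPF) and 3 members (PFC, HPF, MDTH). Many neighbours in these orders did not differ beyond the spread: 63 members had no call between MDTH and PFC, 37 between MDTH and HPF and 48 between HPF and PFC.

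**Figure D4:**
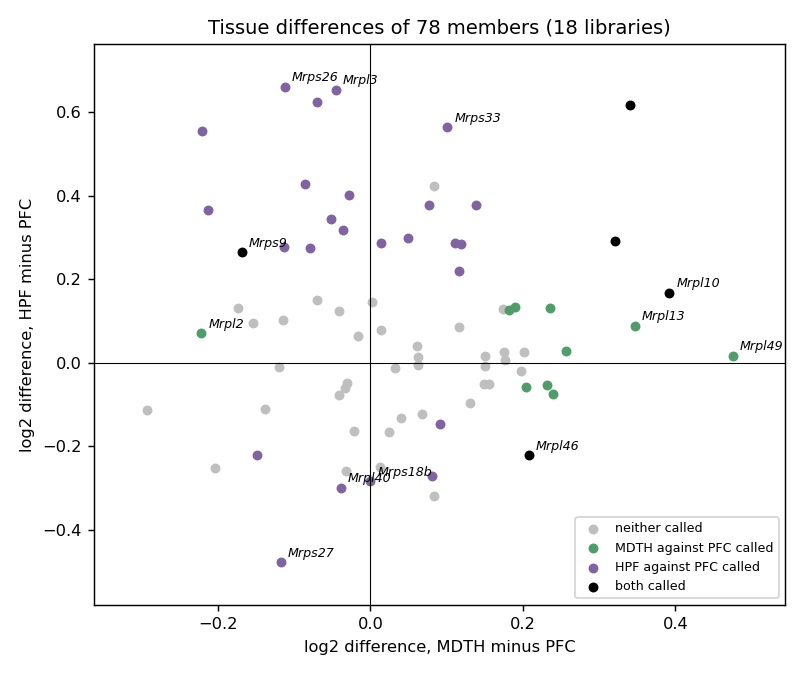
Log2 difference of each of the 78 members between MDTH and PFC (x axis) and between HPF and PFC (y axis), over 18 libraries, coloured by which contrast had an adjusted p below 0.05; both axes share the PFC libraries. Mrps26 and Mrpl3 stand highest for HPF (0.66 and 0.65), and Mrpl49 stands farthest right for MDTH (0.47).

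Per kilobase of transcript, the members' mean levels over 18 libraries ranged widely. The highest were Mrpl20 with 3815 normalized counts per kilobase, Mrps17 with 3053 and Mrps18a with 2580 (SD over libraries 514, 774 and 282). The lowest were Mrps16 with 212, Mrpl1 with 220 and Mrpl32 with 223. The length is the median over the annotated transcripts of a gene and was not measured in these libraries.

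Most members varied little within a group. The SD of log2(normalized count + 1) within groups, averaged over the 6 groups, had a median of 0.11 over the members. It was 0.22 over all genes with a mean of at least 10. The members' means were 332 to 2868, so the sets differ in level, and no set matched for level was compared. The members with the largest SD were Mrps17 (0.37), Mrpl55 (0.36), Mrpl48 (0.34) and Mrps14 (0.31). Mrpl48 has a listed pseudogene, Mrpl48-ps, at 41 to 388 normalized counts, and reads shared between them make its level uncertain. The same holds for Mrpl23 and Mrps36, whose pseudogenes reached 399 and 41 normalized counts.

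The spread of Mrps17 lay in the libraries of 1 name number. The libraries numbered 88 had 1388 normalized counts in PFC, 1312 in MDTH and 1353 in HPF, and the other 15 libraries had 2260.4 to 3445. The mean of those 15 was 2.15 times that of the libraries numbered 88. Mrps14 stood the other way: the libraries numbered 88 had 2468, 2347 and 2309.6 normalized counts, and the others 726 to 1917. These 3 libraries are all high performers, so the widest values of Mrps14 in the high group came from that number in every tissue. Mrps2 had 1466 to 1606 normalized counts in the libraries numbered 88 and 1682 to 2250.0 in the others, and Mrps10 had 603 to 702 in those numbered 165 and 706 to 1203 in the others. In all, 4 of 78 members (5.13%) had all libraries of 1 of the 3 numbers below or above the rest, where 2.05% of all genes did. The numbers 44, 88 and 165 kept the same order in all 3 tissues for 11 members (14.1%), where 11.2% of genes did.

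**Figure D5:**
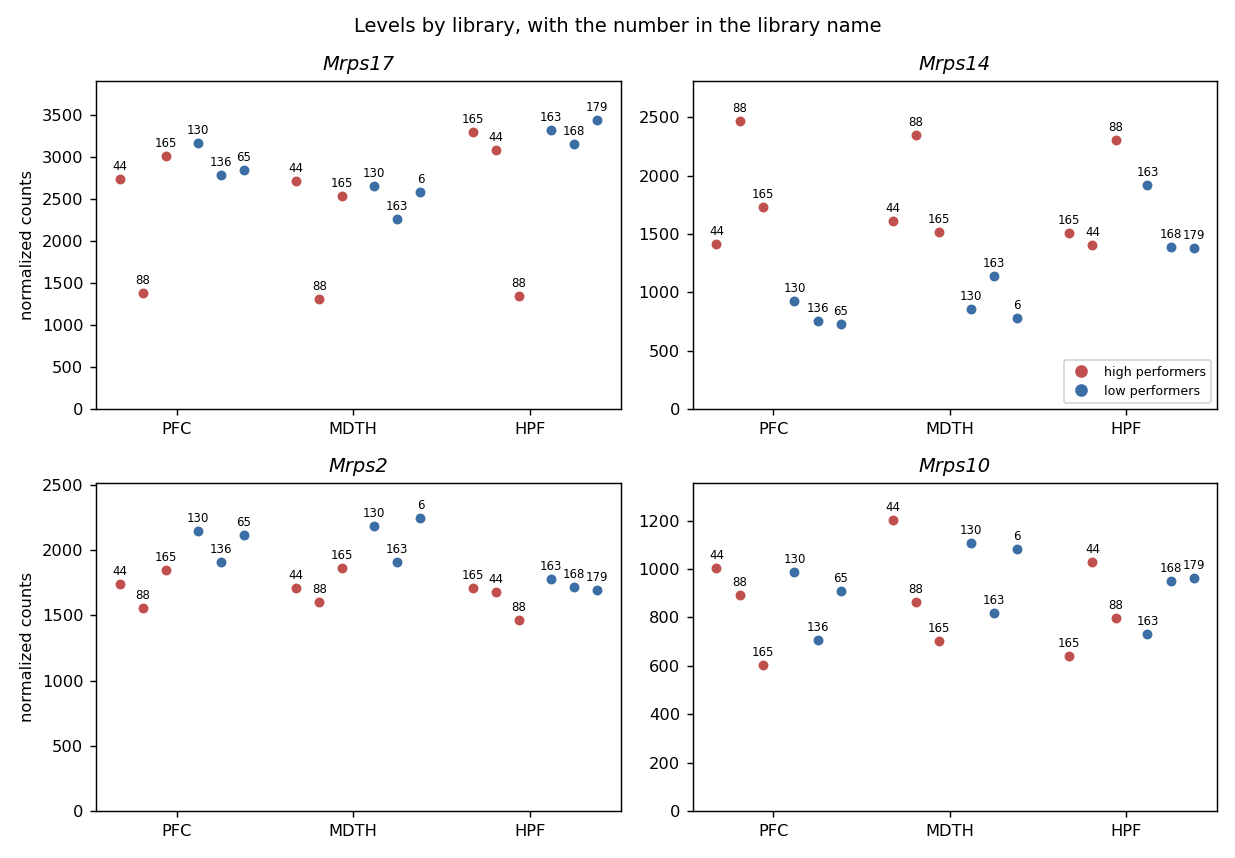
Normalized counts (y axis, linear from 0) of Mrps17, Mrps14, Mrps2 and Mrps10 in each library of PFC, MDTH and HPF, with the number in the library's name beside each point; red points are high performers and blue points low performers. For Mrps17 the 3 libraries numbered 88 lie at 1312 to 1388 and the other 15 at 2260.4 or above.

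The region just before the RefSeq transcription start of Mrps17 and Mrps14 is shown because these genes stood apart by name number. It is the reference sequence, build GRCm38.p6, and not that of these animals. The Mrps17 stretch is at chr5:129715397-129715496 on the plus strand and the Mrps14 stretch at chr1:160195115-160195214 on the plus strand. Both lie directly before the annotated gene, and neither holds any of the motifs searched.
Mrps17: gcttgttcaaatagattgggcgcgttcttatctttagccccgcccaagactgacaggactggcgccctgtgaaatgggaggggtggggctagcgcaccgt
Mrps14: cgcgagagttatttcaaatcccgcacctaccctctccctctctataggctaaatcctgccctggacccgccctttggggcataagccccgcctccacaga

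RefSeq windows from 250 bases before to 50 bases after the start were given for 69 of the 78 members, and motifs were searched on both strands. The letters CCGGAAG, the core bound by ETS factors such as GABPA, were held by 26 of 69 members (37.7%) and by 12.9% of 17492 coding genes. The letters AAGATGGC, a YY1 motif, were held by 12 members (17.4%) and 3.6% of coding genes. The letters GCATGCGC, the core of the NRF1 motif, were held by 8 members (11.6%) and 3.9% of coding genes. At least 1 of the ETS, YY1 and NRF1 core motifs was in 38 members (55.1%) and 18.7% of coding genes. Of the members higher in PFC, 4 of 6 with a window held the ETS letters. Of those higher in MDTH, 7 of 17 did, and of those higher in neither, 18 of 51. A match is a description of the letters, not evidence of binding.

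Stretches of 30 bases around a motif are given for 5 members that rose in PFC or MDTH, with the motif in capitals, read along the gene. They lie at chr5:100798592-100798621 (plus strand, Mrps18c), chr7:105811306-105811335 (minus strand, Mrpl17), chr6:83109038-83109067 (plus strand, Mrpl53), chr9:105053238-105053267 (plus strand, Mrpl3) and chr3:94443299-94443328 (plus strand, Mrpl9), in GRCm38.p6. The capitals are the ETS letters, in reverse complement for Mrps18c, and the NRF1 core for Mrpl9.
Mrps18c: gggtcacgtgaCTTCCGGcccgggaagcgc
Mrpl17: gcatgctccgcCCGGAAGgcgcctcctcca
Mrpl53: ccgcggagccgCCGGAAGcggtccgttcca
Mrpl3: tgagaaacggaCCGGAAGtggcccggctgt
Mrpl9: ggcgcagctgcGCATGCGCggggtccttct

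Many members sit beside another gene. Of the 78, 33 (42.3%) have the start of a coding gene on the opposite strand within 1000 bases, against 10.9% of all 21951 protein-coding genes. Mrps18c starts 29 bases from Helq, Mrpl44 125 bases from Wdfy1 and Mrpl13 340 bases from Mtbp, while Mrps11 and Mrpl46 start 412 bases from each other. Of the partners that are not members, 1 of 29 tested rose and 1 fell in PFC, and 7 of 30 rose (23.3%, against 12.5% of all genes) and 3 fell in MDTH. Exons of 33 members overlap those of another annotated gene, among them Mrpl19 with Gcfc2 and Mrpl44 with Wdfy1 on opposite strands. The kit marks strand, but whether the counting used it is not stated, so values of those members are uncertain. The 45 members without such an overlap had 3 higher (6.67%, against 3.22% of all genes) and 0 lower in PFC and 8 higher (17.8%, against 12.5%) and 2 lower in MDTH, with median log2 differences of 0.19, 0.13 and -0.11 in PFC, MDTH and HPF.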

How the data were processed

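Libraries of the 18 samples were prepared with a stranded mRNA kit from Illumina, per the labels' protocols. The submitters' processing notes name STAR, Salmon and DESeq2 without versions; genome build and annotation are not given in the sources used here. In the deposited table there is 1 signal value per gene and library, a count that the authors scaled for library size (normalized count). From the steps between low values, the depth was estimated at 41156570 to 88628988 reads, deepest in HPF. Only 22.5% to 68.1% of low values per library came out whole (within 0.02 of a read, up to 20 reads), so counts were not recovered and no count test was run.

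Values were tested as log2(value + 1) with limma 3.58.1 (R 4.3.3) with a mean-variance trend, two-sided, over all genes whose mean in the fitted libraries reached 10, with Benjamini-Hochberg adjustment over those genes and calls below 0.05. High and low performers were compared within each tissue (6 libraries); tissue contrasts and interactions came from 1 fit of 18 libraries with 6 group means. In data simulated from these gene means, genes changed by 1 on the log2 scale were called in 88.8% (PFC), 91.5% (MDTH) and 90.3% (HPF) of cases, on 17845, 17764 and 17974 genes. The simulation gave all genes 1 fixed dispersion and did not use the spreads of these libraries. Its shares therefore do not show how often such a change would be called in the real data.

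Residuals of libraries with the same name number correlated at 0.346 to 0.611 in all 11 pairs across tissues. In 43 pairs with other numbers they correlated at -0.370 to 0.312. Each group's mean was subtracted and the high groups hold the same 3 numbers, so positive same-number pairs there push the other pairs down. Among low performers, same-number pairs had 0.346 and 0.394, and other pairs up to 0.312. The name number was used as a random block in an alternative (consensus correlation 0.356). That it marks 1 animal is not stated in the labels. Gene positions and lengths came from GENCODE M21, where all 78 members were found by identifier, and start-site windows from RefSeq, GRCm38.p6. Tables and plots were made with Python 3.11.15, pandas 2.3.3, numpy 2.4.6 and matplotlib 3.10.9.

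Named members were, per tissue, up to 8 called in each direction with the smallest p (3 where fewer than 3 were called); per tissue contrast 3 in each direction; per interaction 3; the 4 with the largest SD; the 3 highest and 3 lowest per kilobase; and the exceptions by role. From each list of related genes, the 2 with the smallest p per tissue were eligible. The members and lists were chosen with earlier results of these data known. Alternatives changed the pseudocount, the filter, the scaling, the trend, the libraries in the fit and the blocks.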

Additional observations from a re-analysis of the deposited data

Results flagged for a closer look

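For the following members the interaction test in limma between tissues had an adjusted p below 0.05. Values are log2 differences of differences. The tissues may share high performer animals, while the numbers of the low performer libraries differ in part between tissues. Tissue and different low performer animals therefore cannot be told apart here. MDTH minus HPF was positive for Mrps18c (0.81) and Mrps33 (0.56) of the small subunit. It was negative for Mrps15 (-0.49), also of the small subunit. In the large subunit it was positive for Mrpl53 (0.91), Mrpl33 (0.88), Mrpl13 (0.74), Mrpl30 (0.62), Mrpl1 (0.61), Mrpl44 (0.60), Mrpl9 (0.58), Mrpl15 (0.56) and Mrpl49 (0.55). Smaller positive values belonged to Mrpl45 (0.51), Mrpl28 (0.48), Mrpl11 (0.42), Mrps18a (0.40) and the rescue factor Mrpl58 (0.36).

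HPF minus PFC was negative in all 16 members called. In the small subunit these were Mrps18c (-0.86), Mrps33 (-0.67), Mrps24 (-0.66), Mrps26 (-0.47) and Mrps22 (-0.46). In the large subunit they were Mrpl33 (-0.88), Mrpl53 (-0.77), Mrpl17 (-0.75), Mrpl44 (-0.61), Mrpl30 (-0.60), Mrpl9 (-0.60), Mrpl2 (-0.56), Mrpl19 (-0.56), Mrpl28 (-0.51), Mrpl13 (-0.51) and Mrpl43 (-0.38). The name style of the libraries separates high from low performers in PFC and MDTH, and the letters after the number do so in HPF. Performance and any difference that goes with the names thus cannot be told apart in these differences.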

How the results depend on the processing

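For each member named in a comparison for its p, the direction was the same under all alternatives run (pseudocounts of 0.5 and 8, no filter on low values, centring on the median, quantile scaling, no trend, blocks, all libraries in 1 fit and each library left out), while 75 of these recomputed values lost the call and 2 gained it. The members' median log2 difference in MDTH moved from 0.18 to 0.25 with libraries centred on their median. The counts of calls moved. In PFC, where 7 members were called, 0 were called without the mean-variance trend and 22 with all 18 libraries in the fit; leaving out 1 library gave 0 to 5. In MDTH, where 20 were called, 12 were called without the trend, and leaving out 1 library gave 7 to 19. In HPF, 0 were called under every alternative. Of the tissue contrasts, only the count for MDTH and PFC (15) moved by over 1.5 times, with 9 to 17 when 1 library was left out. The interaction of MDTH and HPF (17) gave 31 with libraries centred on their median and 11 to 19 with 1 library left out. That of HPF and PFC (16) gave 9 without a filter on low values, where more genes were tested, and 6 to 16 with 1 library left out. That of MDTH and PFC (0) gave 0 to 1.

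With the replicate number of the labels as a replicate block, 0 members were called in PFC and 9 in MDTH. The numbers share no more than a number: same-numbered libraries' residuals correlated at -0.152 to 0.090 in 9 pairs. With the name-number block the interactions gave 1 (MDTH and PFC), 30 (MDTH and HPF) and 25 (HPF and PFC), and the tissue contrasts 21, 48 and 36. Apart from these changes in counts, the cause of which was not tested, 3 libraries a group and values without recovered counts limit the precision.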
